A study of Mus musculus with 20 samples.

Results

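The neocortex of cTKO mice was compared with that of littermate controls, which asks what the adult cortex transcribes differently once amyloid precursor protein (APP) and both of its homologs are lost from its excitatory neurons. These were 10 of the 20 RNA-seq libraries of the series, 5 of each genotype, chosen by their genotype and region labels. The other 10 were from hippocampus. Of 24421 genes listed, 13843 were tested, which are those above 1 CPM (counts scaled to the size of the library) in 5 or more of the 10 neocortical libraries. cTKO mice carried floxed App, Aplp1 and Aplp2 with a Camk2a-Cre transgene, which deletes the floxed segments in excitatory neurons of the forebrain after birth and leaves interneurons, glia and vessels with intact genes. Controls were littermates with the same floxed alleles and no Cre, although the sample labels call them wild type, so no group had unmodified alleles. All mice were 3 months old, of both sexes, on a hybrid of C57BL/6J and 129.

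APP, APLP1 and APLP2 are single-pass membrane proteins with overlapping functions at the synapse. Secretases cut them in turn, which sheds a large ectodomain outside the cell and releases a short intracellular domain into it. For APP, one route of cleavage yields the amyloid-β peptide of Alzheimer's disease. Whether the intracellular domain enters the nucleus and alters transcription has long been debated. In cortex, the family is known for roles in synapse formation, transmitter release and neuronal excitability.

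The libraries held between 12169474 and 24842764 counts, and 3 counts, taken as the smallest level a library can show, came to between 0.121 and 0.247 CPM, which covers counting error only. Excitatory neuron markers (10 genes such as the glutamate transporter gene Slc17a7 and the cortical factor Tbr1) summed to between 10530 and 11580 CPM in controls. In cTKO libraries 1 to 5, the sums were 9274, 10250, 11670, 10220 and 9514 CPM, so that library 3 alone was not below every control. Without cTKO library 5, 0 of the 10 genes were called in the test used below, with a median log2 fold change of 0.02. Library 5 of the cTKO mice stood apart. Its 3 embryonic globin genes, Hbb-y, Hbb-bh1 and Hba-x, summed to 290 CPM against at most 1.32 CPM in the other 9 libraries. Its Hox genes, which are largely silent in forebrain, summed to 47.4 CPM against at most 0.72 CPM, and its 22 mitotic cell cycle genes to 384 CPM against at most 70.6 CPM. The 5 genes farthest above the other libraries were H19, Top2a, Thbs1, Fbn2 and Uhrf1, and in all 359 genes were more than 1.5-fold above and 9 more than 1.5-fold below every other library. Library 5 had an Xist level of 1216 CPM, close to the other libraries rich in Xist (controls 1 and 3 and cTKO library 3, at 770 to 1285 CPM), yet Ddx3y on the Y chromosome was at 3.40 CPM, between the at most 0.25 CPM of those libraries and the 46.6 to 65.5 CPM of the libraries without Xist. Library 3 of the cTKO mice was the next farthest. It had 38 genes above and 75 below every other library by more than 1.5-fold, with the activity genes Nptx2, Gadd45b and Fosb on the high side and Zbtb20, Grin2b and the nuclear RNA Malat1 on the low side, all chosen after their values were seen. In the remaining libraries, at most 19 genes lay above and 22 below. Results are therefore given with all 10 libraries, without cTKO library 5, and, where it matters, without libraries 3 and 5. In the last case, no cTKO library rich in Xist is left, while controls 1 and 3 are. Genotype is then partly confounded with sex, and the part of sex in those results was not tested.

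**Figure D1:**
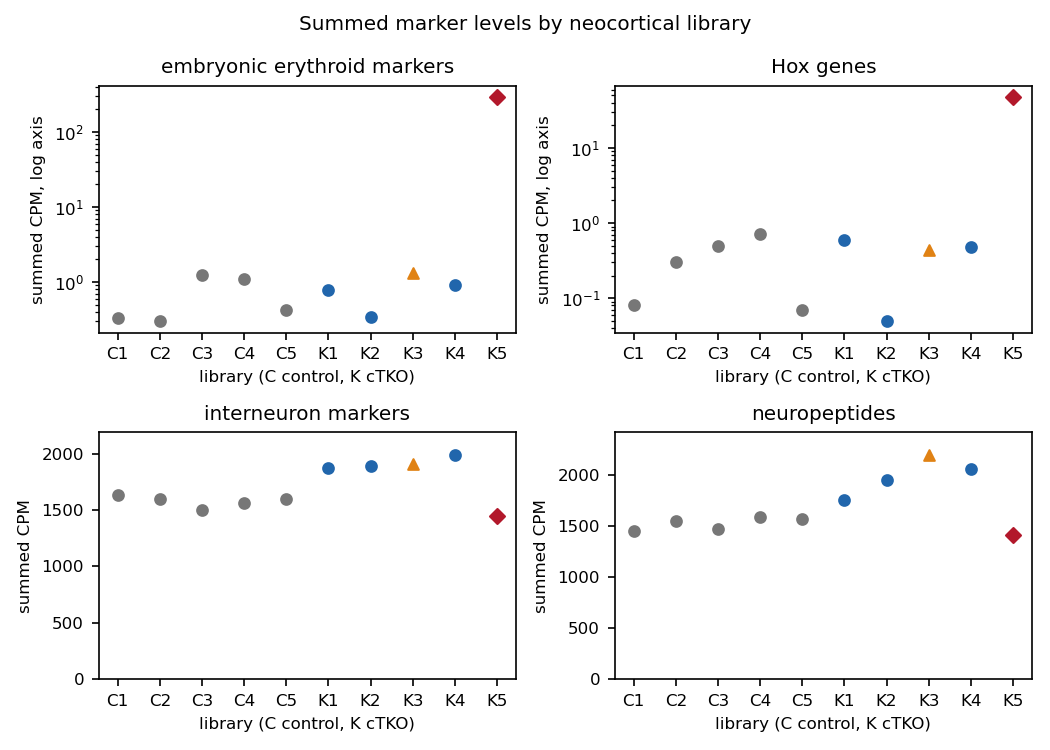
Summed levels (CPM) of the embryonic erythroid markers and the Hox genes, on log axes, and of the interneuron markers and the neuropeptide genes, on linear axes from 0, in each control (C1 to C5) and cTKO (K1 to K5) neocortical library; each point is 1 library. K5 (red diamond) holds 290 CPM of embryonic globins and 47.4 CPM of Hox genes, and in the lower panels it sits below the controls while K1 to K4 sit above them.

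The targeted genes fell in every cTKO library. App (chr16:84952666-85175255, GRCm38.p6) was at 1796, 1625, 1644, 1527 and 1506 CPM in controls 1 to 5 and at 409, 406, 377, 358 and 341 CPM in cTKO libraries 1 to 5. Aplp1 (chr7:30434980-30445582) was at 1128, 1207, 1252, 1252 and 1238 CPM in controls and at 297, 320, 393, 327 and 268 CPM in cTKO mice. Aplp2 (chr9:31149557-31211848) was at 712, 835, 835, 824 and 625 CPM in controls and at 270, 254, 251, 236 and 250 CPM in cTKO mice. No control library overlapped a cTKO library for any of the 3 genes. In cTKO libraries 1 to 4, the levels that remained were 23.9% of the control mean for App, 27.5% for Aplp1 and 33% for Aplp2. Library 5 kept 21%, 22% and 32.6%, so for the targeted genes it was within or below the range of the other cTKO libraries. The log2 fold changes (logFC) of all 5 cTKO libraries against 5 controls were -2.10 ± 0.07 (SE) for App, -1.92 ± 0.09 for Aplp1 and -1.60 ± 0.08 for Aplp2. In two-sided exact permutation tests, each gene gave p = 0.00794, which is the smallest that 252 splits of 5 against 5 allow. The counts cover whole genes, not the floxed segments, so a transcript that lacks the deleted part may still be counted. Here and below, tissue RNA cannot tell fewer cells of a type from less RNA per cell.

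**Figure D2:**
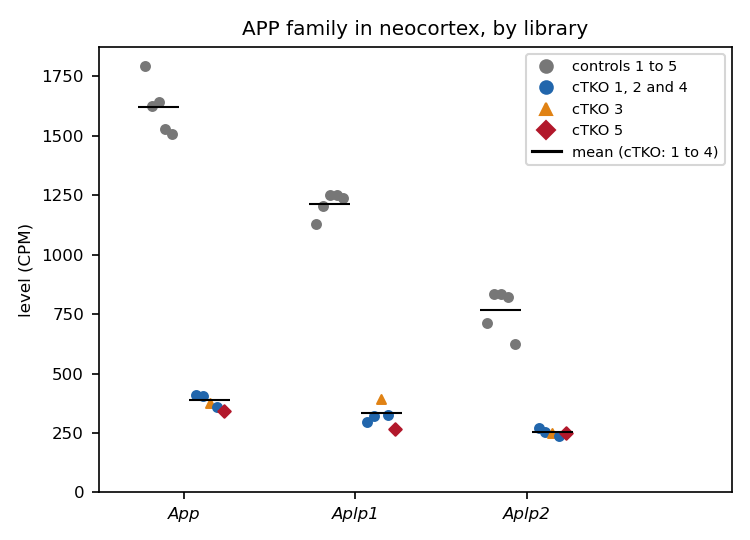
Levels of App, Aplp1 and Aplp2 in CPM (linear axis from 0) in the 5 control and 5 cTKO neocortical libraries; points are libraries and bars are the means of 5 controls and of cTKO libraries 1 to 4. The cTKO libraries, library 5 included, lie between 236 and 409 CPM, below every control library of the same gene.

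With all 10 libraries, 26 genes were differentially expressed (DEGs) at a false discovery rate (FDR) under 0.05 in edgeR's quasi-likelihood test, which is 0.188% of the genes tested. Of these, 12 were up-regulated and 14 down-regulated. Among the rises were Wfs1, Bmp3, Crhbp, Ecel1, F2rl2, Igsf9, Medag, Scn7a, Serpinf1, Sulf1 and Wnt7b. Beside App, Aplp1 and Aplp2, the falls were Rims1, Gpr137c, Ppfia3, Npas4, Dusp8, Prkcb, Btg2, Kitl, BC030499, Foxo3 and Hrk.

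Without cTKO library 5, the same test called 132 DEGs, or 0.954% of the genes tested, of which 77 rose and 55 fell. All 26 DEGs of the full comparison passed again in the same direction. The 106 DEGs that were added were 65 rises and 41 falls, and with all 10 libraries their FDR had been between 0.0545 and 0.845. At an FDR under 0.10, 263 genes passed (1.9%), of which 152 were higher and 111 lower. Most changes were moderate: rises had a median logFC of 0.65 and falls of -0.45, and 17 rises but 4 falls exceeded 2-fold, the latter including the 3 targets. Genotypes did not overlap for 130 of the 132 DEGs, a count that the call itself favours. The share of all tested genes without overlap is not given here, so this count is not read as a result. At the threshold, Dcbld2 (FDR 0.0480), Adamts13 (0.0492) and Ubtd1 (0.0493) were the last inside, and Chrna4 (0.0504), Zbtb4 (0.0505) and Ackr1 (0.0507) the first outside. Leaving out another library did not do the same, with 7 to 13 DEGs, unless it was cTKO library 3: without it alone, 120 genes passed, of which 36 rose and 84 fell. Without libraries 3 and 5, 408 passed (2.95%, of which 193 rises, or 1.39%, and 215 falls, or 1.55%), among them all of the 132, and 7.11% were higher and 7.91% lower at an unadjusted p under 0.05. No cTKO library rich in Xist was left without libraries 3 and 5, so sex was not balanced between the genotypes. Without library 5 and 1 library other than these, 55 to 121 passed.

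**Figure D3:**
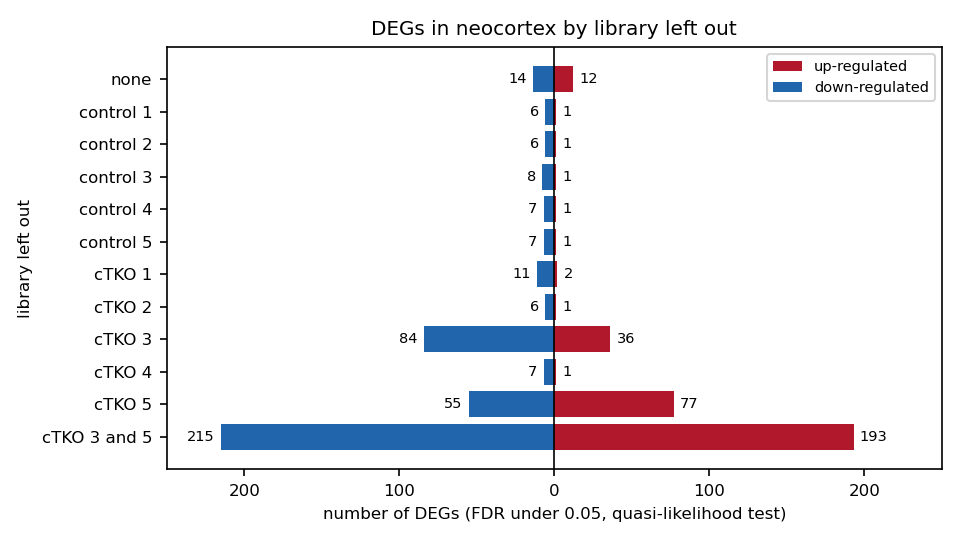
Number of up-regulated (red, to the right) and down-regulated (blue, to the left) DEGs at an FDR under 0.05 in the quasi-likelihood test, by the library left out of the neocortical comparison. Counts are 26 with all libraries, 120 without cTKO library 3, 132 without cTKO library 5, 408 without both and 7 to 13 without any other single library.

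Library 5 did not enter the test that called the 132 DEGs, and its levels differed between rises and falls. Of the 77 rises, it lay above all 5 controls for 24, within their range for 42 and below them all for 11. Of the 55 falls, it lay below all controls for 44, within their range for 7 and above them for 4. The controls in these counts are those that also entered the test, so the counts are a description of where this library lay. The same counts over all tested genes are not given here, so the DEGs cannot be set apart from other genes by them. Sema4a, which encodes a membrane-bound semaphorin, shows the first pattern: it was at 52.8, 52.8, 54.4, 56.3 and 55.5 CPM in controls, at 107, 78.0, 97.9 and 89.0 CPM in cTKO libraries 1 to 4 and at 55.1 CPM in library 5. Rims1, described below, shows the second. Library 5 was also the lowest library for several summed lists. Its presynaptic genes summed to 21720 CPM against at least 22710 CPM in the others, and its glutamate receptor genes to 3993 against at least 4311 CPM. It was not the lowest for excitatory neuron markers or postsynaptic genes. Whether the embryonic reads of library 5 account for its levels was not tested.

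**Figure D4:**
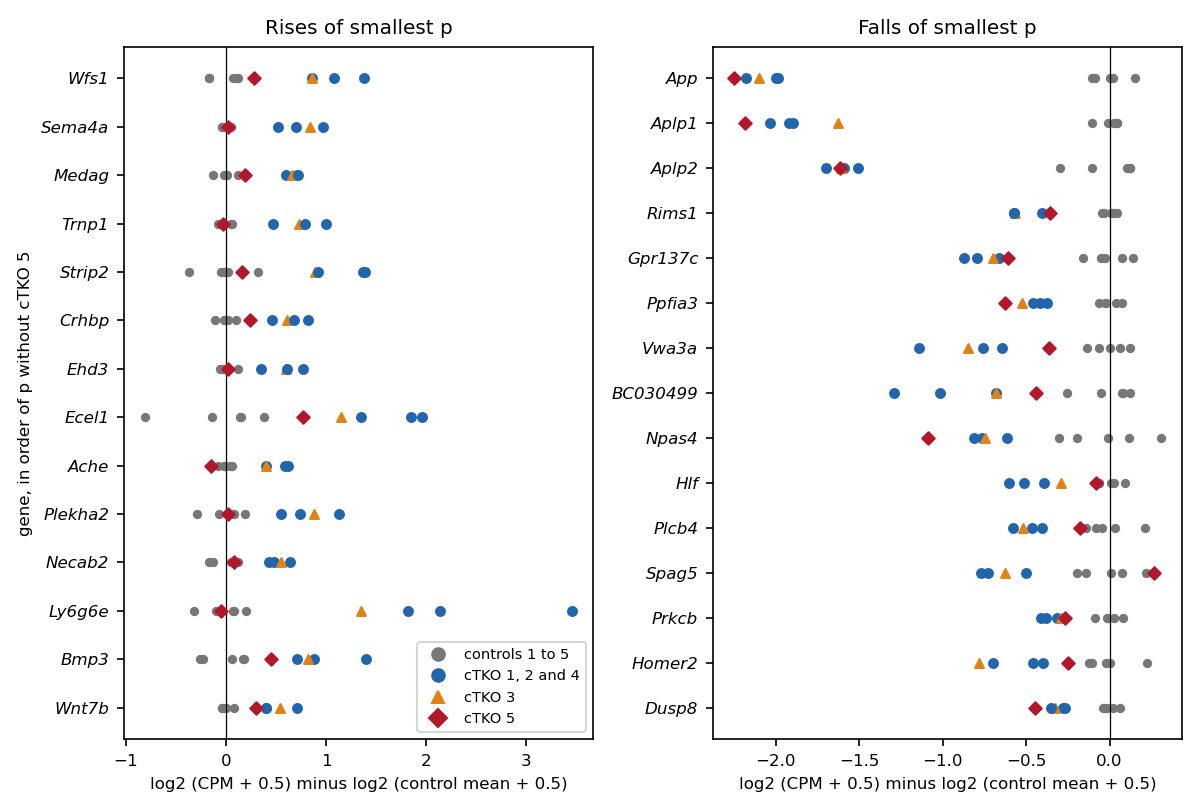
Log2 level, log2 (CPM + 0.5), relative to the control mean for 14 of the 15 rises and for the 15 falls of smallest p without cTKO library 5, 1 point a library. Library 5 (red diamonds) lies among or below the controls for rises such as Sema4a, Trnp1 and Ache, but with the other cTKO libraries for falls such as App, Rims1, Ppfia3 and Dusp8.

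At the synapse, release and scaffold genes moved in both directions and by less than 2-fold. Rims1 (chr1:22285972-22806158) encodes the scaffold of the active zone where vesicles fuse. It was at 282, 284, 274, 290 and 271 CPM in controls and at 189, 211, 189, 188 and 219 CPM in cTKO mice, with every cTKO library below every control. Without library 5, its logFC was -0.53 ± 0.06 (SE, 4 against 5) and its FDR 0.000438, with an FDR of 0.00183 in all 10. Ppfia3 encodes liprin-α3, which binds RIM proteins at the active zone, and was at 212, 218, 219, 228 and 234 CPM in controls against 161, 166, 154, 171 and 144 CPM in cTKO mice. The genotypes again did not overlap, with a logFC of -0.45 ± 0.06 and an FDR of 0.00194. Opposite in direction were Rimbp2, which links RIM to calcium channels (logFC 0.38 ± 0.06, FDR 0.00618), and Syn2, a synapsin that tethers vesicles (0.45 ± 0.07, FDR 0.00841). Syn2 shares its locus with Timp4, and reads of overlapping genes may not be told apart. All gene lists in this report were written with earlier results of these data known, so their counts are descriptions. Of 45 presynaptic genes tested, 2 rose and 2 fell, with a median logFC of -0.02. At an unadjusted p under 0.05, 5 were higher and 9 lower. Among all 13843 genes, 0.556% rose and 0.397% fell, 6.43% were higher and 5.53% lower at that p, and the median logFC was -0.0005.

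The few postsynaptic scaffold and signalling genes that passed without library 5 were down-regulated. Of 35 tested, 0 rose and 3 fell, and 2 were higher and 14 lower at an unadjusted p under 0.05 (median logFC -0.12). Prkcb, a protein kinase C isoform, was at 1722, 1616, 1656, 1606 and 1532 CPM in controls and at 1248, 1306, 1330, 1225 and 1349 CPM in cTKO mice, so that all 5 cTKO libraries lay below the controls. Its logFC without library 5 was -0.35 ± 0.06 (FDR 0.0102). Homer2, a scaffold that ties group I metabotropic glutamate receptors to calcium stores, fell by 0.58 on the log2 scale (SE 0.09, FDR 0.0106), from 92.6 to 118 CPM in controls to 58.6 to 76.5 CPM in cTKO libraries 1 to 4, with 85.0 CPM in library 5. Dlgap2, which binds PSD-95, had a logFC of -0.28 ± 0.06 (FDR 0.0464). Without libraries 3 and 5, 7 of the 35 fell and 0 rose. None of 58 potassium and HCN channel genes, 24 sodium and calcium channel genes or 29 glutamate receptor genes passed, and with 0.954% of all genes called, 0 calls in lists of this size do not set them apart. At an unadjusted p under 0.05, the counts higher and lower were 8 and 14, 2 and 6, and 4 and 1. Those with the smallest p were Hcn3 (0.40) and Kcnip3 (0.45), Cacna1i (-0.41) and Cacnb3 (-0.31), and Grin3a (0.30) and Cnih3 (0.21), in logFC. Without libraries 3 and 5, 3 potassium or HCN channel genes rose and 4 fell.

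Among genes that respond to neuronal activity, the fast ones that passed fell and the late ones that passed rose. Fast immediate early genes are transcribed within minutes of activity, mostly without new protein, while late ones follow over hours and include secreted factors that act on synapses. Of 23 fast genes tested, 0 rose and 3 fell without library 5, and 0 were higher and 5 lower at an unadjusted p under 0.05 (median logFC -0.15). Npas4 (chr19:4984353-5003439), a transcription factor induced by calcium entry, was at 47.8, 52.2, 38.8, 41.9 and 59.5 CPM in controls and at 28.1, 27.1, 28.4, 31.2 and 22.3 CPM in cTKO mice. All cTKO libraries were below all controls, with a logFC of -0.75 ± 0.11 and an FDR of 0.00679. Btg2, an antiproliferative early gene, was at 20.8, 24.9, 18.6, 18.5 and 21.7 CPM in controls and at 13.5, 10.8, 14.7, 14.9 and 10.7 CPM in cTKO mice. It did not overlap either (logFC -0.64 ± 0.12, FDR 0.0221). The third fall was Cyr61, a matricellular early gene now called Ccn1, with a logFC of -0.76 ± 0.16 (FDR 0.0375). Fosb, chosen after its values were seen, had a logFC of 0.52 without library 5 and of -0.71 without libraries 3 and 5, where 5 of the 23 fell and 0 rose. Control 1 was the highest library for this list, with a sum of 3209 CPM against 1855 to 2312 CPM in controls 2 to 5, 1740 to 2557 CPM in cTKO libraries 1 to 4 and 1681 CPM in library 5. Egr1, Egr2, Egr4, Nr4a3 and Fosl2, chosen after their values were seen, were each higher there than in any other library. Without control 1 and library 5, 1 of the 23 fell, 0 rose, and 2 were higher and 5 lower at an unadjusted p under 0.05 (median logFC -0.065). Npas4 passed without library 5 and any other single library, whereas Btg2 did not without control 1, 2 or 5 or cTKO library 1, and Cyr61 passed when control 3 or cTKO library 3 was left out but not without any of the others.

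Of 22 late activity-regulated genes, a list written with earlier results of these data known, 6 rose and 0 fell without library 5. At an unadjusted p under 0.05, 14 were higher and 1 lower (median logFC 0.31). Of all genes tested, 0.556% rose, 0.397% fell, 6.43% were higher and 5.53% lower in that comparison. With all 10 libraries, 0 of the 22 passed in edgeR's quasi-likelihood test, and 9 were higher at that p. There, 5.57% of all genes were higher and 4.86% lower. Bdnf (chr2:109674700-109727043), a neurotrophin, was at 45.4, 37.7, 36.4, 28.3 and 41.8 CPM in controls, at 75.2, 54.1, 87.3 and 61.3 CPM in cTKO libraries 1 to 4 and at 42.9 CPM in library 5. The 4 libraries were above the controls and library 5 was within their range. The logFC was 0.87 ± 0.14 (FDR 0.0121) without library 5 and 0.76 ± 0.17 (FDR 0.108) with it. Vgf, a secretory granule protein and peptide precursor, was at 294, 272, 272, 299 and 341 CPM in controls and at 393, 396, 530, 459 and 280 CPM in cTKO mice, with library 5 again among the controls (logFC 0.59 ± 0.09, FDR 0.0103, without it). The other rises were Inhba, the activin A subunit (0.87 ± 0.17), Rgs2, an inhibitor of G protein signalling (0.68 ± 0.14), Npy (0.65 ± 0.12) and Scg2, the precursor of secretoneurin (0.33 ± 0.07). Library 3 was high in several activity genes, and all 6 passed without it as well: without libraries 3 and 5, 8 of the 22 rose and 0 fell, with a median logFC of 0.18, and Bdnf had a logFC of 0.74 (FDR 0.00764). Without library 5 and 1 library other than these, 2 to 4 of the 22 rose, 2 of them without control 1, 3 or 5 or cTKO library 4, and Bdnf and Vgf passed each time. A difference between the fast and the late genes was not tested.

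**Figure D5:**
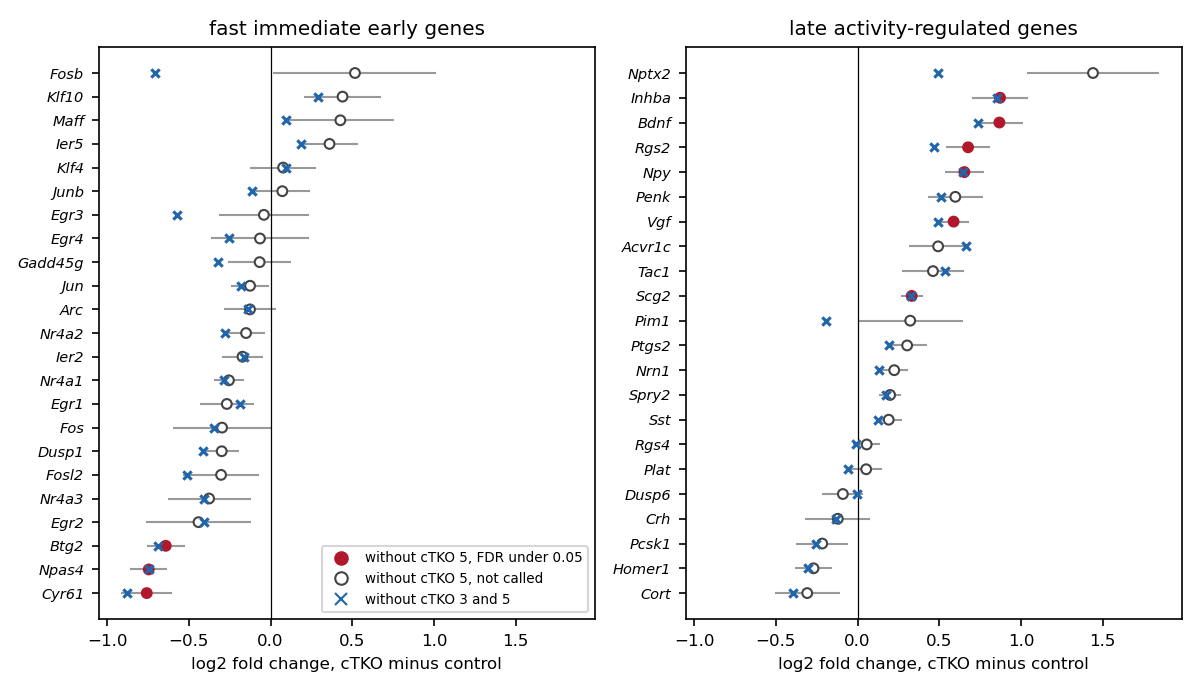
LogFC of cTKO against control neocortex for the 23 fast and the 22 late activity genes; circles and bars (1 SE) are without cTKO library 5, filled where the FDR was under 0.05, and crosses are without libraries 3 and 5. Filled circles are 3 falls among the fast genes and 6 rises among the late genes, and Fosb is at 0.52 as a circle and at -0.71 as a cross.

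The cyclic AMP response element (CRE) is bound by CREB, a factor that many activity genes share, and promoters were searched for it because genes of this kind lay on both sides. The search covered 250 bases before to 50 after each start in RefSeq (GRCm38.p6), both strands, for the full element TGACGTCA and for its core TGACG, which every full element also holds. Of the 132 DEGs, 45 falls and 61 rises had a promoter sequence, some with more than 1. The full element was in 5 of 55 promoters of genes that fell (9.09%), in 1 of 93 promoters of genes that rose (1.08%) and in 416 of 14135 promoters of all tested genes (2.94%). The core was in 36.4%, 21.5% and 29.9%. These shares are a description without a test. The promoters of 3 falls, Btg2, Dusp8 and Hlf, and of Scg2, which rose, are shown because they hold the full element, in capitals, and lie in genes on both sides of the comparison. They are at chr1:134079106-134079405, chr7:142095235-142095534, chr11:90390868-90391167 and chr1:79439977-79440276, all on the minus strand.
Btg2: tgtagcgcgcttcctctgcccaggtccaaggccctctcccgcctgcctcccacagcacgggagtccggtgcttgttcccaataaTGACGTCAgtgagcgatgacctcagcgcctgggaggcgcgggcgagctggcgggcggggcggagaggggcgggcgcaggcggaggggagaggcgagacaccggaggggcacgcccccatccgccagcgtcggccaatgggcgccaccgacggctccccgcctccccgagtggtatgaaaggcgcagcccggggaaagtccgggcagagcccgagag
Dusp8: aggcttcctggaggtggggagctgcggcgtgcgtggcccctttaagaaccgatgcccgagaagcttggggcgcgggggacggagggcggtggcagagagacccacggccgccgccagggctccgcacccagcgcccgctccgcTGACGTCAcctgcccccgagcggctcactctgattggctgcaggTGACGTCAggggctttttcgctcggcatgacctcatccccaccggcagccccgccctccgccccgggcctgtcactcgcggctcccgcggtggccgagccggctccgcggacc
Hlf: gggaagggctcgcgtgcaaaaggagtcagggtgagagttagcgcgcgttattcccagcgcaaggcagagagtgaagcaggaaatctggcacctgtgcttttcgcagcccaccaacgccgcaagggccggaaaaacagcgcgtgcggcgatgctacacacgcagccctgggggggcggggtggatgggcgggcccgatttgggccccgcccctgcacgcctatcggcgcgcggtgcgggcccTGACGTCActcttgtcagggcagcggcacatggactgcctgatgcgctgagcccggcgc
Scg2: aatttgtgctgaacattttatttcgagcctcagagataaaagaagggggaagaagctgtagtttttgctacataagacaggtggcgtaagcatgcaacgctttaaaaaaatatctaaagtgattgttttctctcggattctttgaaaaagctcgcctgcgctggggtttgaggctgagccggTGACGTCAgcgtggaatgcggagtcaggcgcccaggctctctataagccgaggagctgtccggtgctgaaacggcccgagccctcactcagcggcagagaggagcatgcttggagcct
Dusp8, a phosphatase that acts on MAP kinases, holds the element at 2 places, and was at 183, 170, 173, 177 and 171 CPM in controls against 144, 145, 139, 137 and 128 CPM in cTKO mice, without overlap (logFC -0.31 ± 0.05, FDR 0.0122). Hlf, a PAR bZIP factor under circadian control, was at 360, 342, 364, 343 and 382 CPM in controls and at 236, 251, 292, 272 and 338 CPM in cTKO mice. All 5 cTKO libraries lay below the controls, library 5 by the least, and the logFC without it was -0.45 ± 0.07 (FDR 0.00841). Scg2 was at 251, 289, 260, 231 and 252 CPM in controls and at 349, 308, 327, 308 and 238 CPM in cTKO mice, with library 5 within the controls. Of 19 clock and PAR bZIP genes, Hlf was the single one called, and 0 were higher and 5 lower at an unadjusted p under 0.05 (median logFC -0.11). The E-box CACGTG, through which clock factors act, was in 3.64% of the promoters of falls, 5.38% of those of rises and 9.66% of all. The D-box TTACGTAA was in 1.82%, 0% and 0.17%. The search for the serum response element found it in 0%, 0% and 0.03%. The form of that element that was searched is not given here, so its shares do not show how common the element is in promoters.

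Several secreted peptides and granule proteins rose. Of 22 neuropeptide and neuropeptide receptor genes tested, 4 rose (Vgf, Npy, Pdyn and Scg2) and 0 fell without library 5. At an unadjusted p under 0.05, 13 were higher and 2 lower (median logFC 0.29). Of all genes tested, 0.556% rose, 0.397% fell, 6.43% were higher and 5.53% lower in that comparison. Vgf, Npy and Scg2 are also counted among the late activity genes. Summed over the list, controls were between 1454 and 1586 CPM, cTKO libraries 1 to 4 between 1757 and 2196 CPM, and library 5 at 1409 CPM, below the controls. Npy, an inhibitory peptide of cortical interneurons, was at 105, 122, 125, 155 and 128 CPM in controls and at 170, 175, 203, 252 and 142 CPM in cTKO mice, and library 5 alone overlapped the controls. Chga, which encodes the granule protein chromogranin A, was at 170, 171, 189, 175 and 165 CPM in controls and at 388, 243, 236, 318 and 149 CPM in cTKO mice. Here too, 4 cTKO libraries were above and library 5 below all controls (logFC 0.77 ± 0.12, FDR 0.00928, without it). In a list of 16 secretory granule proteins, drawn up after the values were seen, 4 rose (Chga, Vgf, Cyb561 and Scg2) and 1 fell (Cadps2, which primes dense-core vesicles). Crhbp, the binding protein of corticotropin-releasing hormone, was up-regulated with all 10 libraries, at 20.4 to 23.6 CPM in controls and 26.2 to 39.3 CPM in cTKO mice (logFC 0.59 ± 0.10, FDR 0.0352).

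Several of the larger rises were of extracellular proteases and signals. Of 38 extracellular proteases, inhibitors and protease receptors, 6 rose and 0 fell without library 5. At an unadjusted p under 0.05, 9 were higher and 0 lower (median logFC 0.15). Of all genes tested, 0.556% rose, 0.397% fell, 6.43% were higher and 5.53% lower in that comparison. Ecel1, a neprilysin-like peptidase of neurons, was at 5.74, 13.7, 11.5, 11.6 and 9.41 CPM in controls and at 41.8, 27.2, 23.7, 38.7 and 18.1 CPM in cTKO mice. All 5 cTKO libraries were above the controls, with a logFC of 1.55 ± 0.25 in all 10 (FDR 0.0303) and of 1.68 ± 0.22 without library 5 (FDR 0.00258). With it rose F2rl2, a receptor cut by thrombin (1.37 ± 0.20), Tll1, a protease that processes procollagens and BMP antagonists (1.20 ± 0.21), Serpinf1, which encodes PEDF (0.75 ± 0.12), Prss23 (0.71 ± 0.15) and the metalloprotease inhibitor Timp2 (0.54 ± 0.10). F2rl2 was at low levels, 2.34 to 4.19 CPM in controls and 5.45 to 9.17 CPM in cTKO libraries 1 to 4. It shares its locus with Iqgap2, and reads of overlapping genes may not be told apart. Among 20 BMP and activin genes, 4 rose and 0 fell, among them Bmp3, Inhba and Tll1, the last of which is also counted as a protease. Bmp3, a BMP family ligand, was at 17.1, 18.6, 18.5, 13.6 and 13.9 CPM in controls and at 27.2, 30.4, 29.2, 43.8 and 22.6 CPM in cTKO mice, without overlap (logFC 0.91 ± 0.16, FDR 0.0362, with all 10). The median of this list was -0.01. Wnt7b, a Wnt ligand, was up-regulated in both comparisons, at 31.7 to 34.6 CPM in controls and 40.2 to 53.6 CPM in the 5 cTKO libraries (logFC 0.52 ± 0.08, FDR 0.00597, without library 5).

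Of 57 matrix genes, 0 rose and 2 fell without library 5, the collagen Col24a1 (logFC -0.84 ± 0.16) and the matrilin Matn2 (-0.59 ± 0.12), while 18 were higher and 2 lower at an unadjusted p under 0.05 (median logFC 0.12). Without libraries 3 and 5, 11 rose and 2 fell. Markers of fibroblasts and meninges, several of which are collagens, summed to 217 to 352 CPM in controls, 265 to 308 CPM in cTKO libraries 1 to 4 and 832 CPM in library 5. Of these 10 genes, 0 were called without library 5 in the quasi-likelihood test, with 4 higher at an unadjusted p under 0.05. Without libraries 3 and 5, where the matrix list had its 11 rises, 2 of these markers rose, Col1a1 and Col1a2, and 5 were higher and 1 lower at that p. Their part in the matrix levels was not tested. Sulf1, an enzyme that trims sulfate from heparan sulfate and a marker of deep layer neurons, was up-regulated in both comparisons, at 20.2, 22.2, 22.8, 19.1 and 21.4 CPM in controls and 41.8, 32.6, 24.2, 42.7 and 38.6 CPM in cTKO mice. Library 3 was nearest to the controls here and library 5 was not, and the logFC was 0.77 ± 0.13 with all 10 libraries (FDR 0.0352).

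Among other genes with small p, Wfs1 (chr5:36966104-36988982) encodes wolframin, a protein of the endoplasmic reticulum, and is on the lists of upper layer and of hippocampal neuron markers. It was at 168, 168, 205, 198 and 204 CPM in controls and at 400, 344, 344, 492 and 230 CPM in cTKO mice, with library 5 closest to the controls but above them. Its logFC was 1.06 ± 0.11 (FDR 0.000365) without library 5 and 0.94 ± 0.15 (FDR 0.0307) with it. Wfs1 was also the single called gene of the 21 in the unfolded protein and heat shock list, whose median was -0.004. The other upper layer markers did not rise with it. Of 11 tested, Rasgrf2, a Ras activator, fell (-0.33 ± 0.07, FDR 0.046) and Wfs1 alone rose, while 2 were higher and 5 lower at an unadjusted p under 0.05 (median logFC -0.10). Lamp5 fell as well without libraries 3 and 5, where the median was -0.20. Left without Wfs1, their sum was 988 to 1135 CPM in controls, 859 to 984 CPM in cTKO libraries 1 to 4 and 909.6 CPM in library 5. Every cTKO library was thus below every control, but library 5 was low for several other lists too, as given above. Of 15 deep layer markers, 1 rose (Sulf1) and 0 fell, and 6 were higher and 2 lower at that p (median logFC 0.01), and 3 rose without libraries 3 and 5. Of 8 hippocampal neuron markers tested, 2 rose, Wfs1 and Bok. Their sum was 355 to 401 CPM in controls, 549 to 715 CPM in cTKO libraries 1 to 4 and 408 CPM in library 5, but without Wfs1 it was 172 to 208, 203 to 222 and 185 CPM, and the genotypes overlapped. Among the remaining genes, Ly6g6e had the largest logFC of the 29 genes plotted, 2.77 ± 0.40, from low levels of 1.11 to 1.82 CPM in controls to 4.65 to 21.6 CPM in cTKO libraries 1 to 4, with 1.45 CPM in library 5. Its locus overlaps that of Ly6g6d, so reads of the 2 genes may not be told apart. Strip2 (1.18 ± 0.13), Trnp1, a nuclear protein of cortical progenitors and neurons (0.76 ± 0.09), Ehd3, which acts in endosomal recycling (0.59 ± 0.08), and Ache, acetylcholinesterase (0.51 ± 0.07), rose without library 5 and did not pass with it. Gpr137c was at 18.9 to 23.4 CPM in controls and at 11.3 to 13.7 CPM in all 5 cTKO libraries (logFC -0.78 ± 0.09, FDR 0.000889). Kitl, the ligand of the receptor Kit (-0.41 ± 0.07), and the factor Foxo3 (-0.40 ± 0.08) also fell. In the Bcl2 family of 14 genes, Hrk, a pro-apoptotic gene of neurons, fell (-0.48 ± 0.09, FDR 0.0306) and Bok rose (0.55 ± 0.10, FDR 0.0199).

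The study asked about 12 genes proposed as targets of the APP intracellular domain. Without library 5, Npas4 fell and none of the other 11 passed in edgeR's quasi-likelihood test, nor did any at an unadjusted p under 0.05 (median logFC of the 12, -0.04). Mme, 1 of the 12, encodes the amyloid-degrading peptidase neprilysin and is shown here because of that role. It had a logFC of -0.12 with an FDR of 0.84. The study, which calls it Nep, reported a significant decrease in neocortex by qRT-PCR but not by RNA-seq. None of 20 secretase and APP adaptor genes passed either, and 1 was lower at an unadjusted p under 0.05, Tshz3 (logFC -0.22). Apbb1, next in p, was at 0.12. None of 14 glucocorticoid-responsive genes passed, although 6 were lower and 0 higher at an unadjusted p under 0.05 (median logFC -0.26), led by Pdk4 (-0.37) and Tsc22d3 (-0.49), and 2 fell without libraries 3 and 5.

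Markers of cells that Camk2a-Cre spares were examined for changes in makeup. Whether each marker is confined to such cells was not tested. Of 13 interneuron markers tested, 2 rose, Gad2 and Npy, and 0 fell without library 5, and 6 were higher and 1 lower at an unadjusted p under 0.05 (median logFC 0.15). Their sum was 1505 to 1636 CPM in controls, 1875 to 1991 CPM in cTKO libraries 1 to 4 and 1452 CPM in library 5. Gad2, a GABA synthesis enzyme, was at 245, 256, 222, 220 and 225 CPM in controls and at 376, 356, 262, 351 and 255 CPM in cTKO mice. Library 5 overlapped the controls and library 3 was just above them, and the logFC was 0.52 ± 0.09 (FDR 0.0179) without library 5 and 0.63 (FDR 0.000204) without both. Vip was the marker on the low side (-0.33), and the Vip, Sst and Gad1 changes did not pass. Leaving out control 3, control 5 or cTKO library 4 beside library 5 left 0 of the 13 called in the quasi-likelihood test, with 4 to 6 higher at an unadjusted p under 0.05. Npy and other peptides above are also interneuron genes, and the share of the interneuron signal in their rise was not tested.

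Markers of other cell types were read against the 0.954% of all genes that passed without library 5, a share that gives lists of this size few calls or none. Of 10 astrocyte, 10 oligodendrocyte, 8 oligodendrocyte precursor, 14 microglia, 10 endothelial and 8 mural cell markers, 0 passed in the quasi-likelihood test, with 2, 0, 0, 0, 0 and 0 higher and 2, 0, 0, 1, 0 and 0 lower at an unadjusted p under 0.05. Summed astrocyte markers were at 6171 to 6764 CPM in controls and at 5858 to 6101 CPM in cTKO libraries 1 to 4. Library 5 was at 5520 CPM, so that every cTKO library was below every control for this sum. As given above, library 5 was also the lowest for lists such as presynaptic genes, so its low sum is not particular to astrocyte markers. Oligodendrocyte markers, mostly of myelin, summed to 4079 to 5416 CPM in controls, 4249, 4200 and 3192 CPM in cTKO libraries 1, 2 and 4, 6306 CPM in library 3 and 4165 CPM in library 5. Without libraries 3 and 5, 7 of the 10 were lower at an unadjusted p under 0.05 and 0 passed at the FDR in the quasi-likelihood test, with a median logFC of -0.31 against -0.13 with library 3. In that comparison 4 astrocyte markers were lower and 2 higher at that p, and 1 microglia marker fell (Nrros, -0.62, FDR 0.0346). Of 7 activated microglia markers, 1 rose, Gpnmb, a lysosomal glycoprotein, from 2.97, 3.83, 4.14, 4.13 and 4.67 CPM in controls to 7.04, 10.4, 5.78, 15.1 and 5.49 CPM in cTKO mice. All 5 cTKO libraries were above the controls (logFC 1.29 ± 0.25, FDR 0.0282, without library 5). Of 7 ependymal cilia markers, Vwa3a fell (-0.91 ± 0.13, FDR 0.00597), and the median of the list was -0.65. Their sum was 47.4 to 57.3 CPM in controls and 36.3 to 43.7 CPM in cTKO libraries 1 to 4. Striatal markers summed to 625 to 890 CPM in controls and to 845, 1271, 1079 and 774 CPM in cTKO libraries 1 to 4. Of 10 tested, 0 were called and 4 were higher at an unadjusted p under 0.05. Penk and Drd1, compared between regions below, are on this list. In cTKO libraries 1 to 4, Penk was at 160, 292, 271 and 203 CPM and Drd1 at 29.3, 40.8, 29.2 and 23.2 CPM. Controls were at 111 to 184 and 16.4 to 27.7 CPM. Whether these levels follow the striatal sums was not tested. Of 16 cell cycle genes tested, the median logFC was 1.19 with all 10 libraries and -0.08 without library 5, and 0 passed in the quasi-likelihood test of either comparison, with 6 and 3 higher at an unadjusted p under 0.05.

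The change in neocortex was compared with that in hippocampus in one fit of both regions with an interaction term, which takes libraries of the same mice as independent. Left out were cTKO neocortical library 5 and cTKO hippocampal library 4, which also held embryonic reads, so that 18 libraries entered. For 11 of 14076 genes (0.0781%), the genotype effect differed between regions at an FDR under 0.05. Strip2 had a logFC of 1.18 in neocortex against -0.17 in hippocampus, a difference of 1.35 (FDR 0.0427). Penk, the enkephalin precursor, had a logFC of 0.60 in neocortex, which did not pass (FDR 0.137), against 2.21 in hippocampus, a difference of -1.62 (FDR 0.0069). Drd1, a dopamine receptor, had a logFC of 0.41 in neocortex (FDR 0.325) against 1.88 in hippocampus. Lrrc55, Ptchd1, Ppl, Rprm and Sh2d5 also had a lower logFC in neocortex, with differences between -0.67 and -1.87, while Fbn1 (1.22) differed in the other direction. Trpa1, also among the 11, was under the neocortical filter on low levels. For the targets, the neocortical minus the hippocampal logFC was -0.28 for App, 0.02 for Aplp1 and -0.38 for Aplp2. The logFC of App and of Aplp2 was lower in neocortex at an unadjusted p under 0.05 (0.0058 and 0.011 in edgeR's quasi-likelihood test of 18 libraries), and that of Aplp1 was not (0.852). None passed over all genes, with an FDR of 0.704, 0.9997 and 0.849. With all 20 libraries, the difference was -0.33 for App and -0.36 for Aplp2, both at an unadjusted p under 0.05 (0.0018 and 0.0088), again without passing over all genes (FDR 0.505 and 0.874).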

How the data were processed

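Neocortical RNA from 5 cTKO and 5 control mice was made into poly-A libraries, read as 100-base single ends, mapped by the authors to mm10 with STAR (2.5.4a per the labels) and counted on genes with HTSeq. The deposited values are raw counts by gene symbol, without normalization, and 0 columns were left unused. The strand setting and the annotation are not given in the sources used here. Libraries were grouped by their labels. A chi-square comparison of counts found no library deposited more than once.

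The filter kept genes over 1 CPM in 5 or more neocortical libraries, and these were compared with edgeR 4.0.16 (TMM scaling, quasi-likelihood test, Benjamini-Hochberg adjustment over the 13843 genes, FDR under 0.05) in R 4.3.3, with no covariate. The authors also compared genotypes by region with edgeR after TMM scaling, but which of its tests they ran is not given in the sources used here. The comparison without cTKO library 5 used the same genes. SE is the logFC divided by the square root of its F statistic. CPM are TMM-scaled. Log2 CPM for permutation tests had a prior count of 2. Lists were described by counts and medians, without set tests. Total counts of 12169474 to 24842764 set the precision. Positions and promoters are from RefSeq (GRCm38.p6, the build of mm10), where 13809 of the 13843 genes matched.

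Alternatives were DESeq2 size factors, filterByExpr and no filter, the exact and likelihood ratio tests, a robust fit, DESeq2 1.42.0, limma 3.58.1 voom with quality weights, Xist as covariate, the library number as block, and each library left out. Leaving out libraries 3 and 5 together was added after seeing the data, as was the granule list. Procedures were tested on simulated data.

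The members and lists were chosen with earlier results of these data known. Named were the targets, every DEG of all 10 libraries, the 15 rises and 15 falls of smallest p without library 5, called members of a list or else the 2 of smallest p, the 5 genes farthest above in library 5, and genes of the interaction. Results of some genes are not reported here. The authors' own fold changes and p-values were not used.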

Additional observations from a re-analysis of the deposited data

Results flagged for a closer look

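In groups of 5 libraries, a single library was marked where its gap to the nearest other exceeded the Dixon limit at the 95% level, which chance alone does in about 1 of 20 groups. Library 5 of the cTKO mice was marked for most. It was low for Medag (28.0 CPM) and Ache (40.7 CPM), which rose in the other cTKO libraries, and high for Spag5 (19.4 CPM) and Col24a1 (10.8 CPM), which fell in them. Fbn1, a microfibril gene, was at 29.6 CPM there against 8.04 to 10.4 CPM in cTKO libraries 1 to 4. Its summed interneuron markers were at 1450 CPM, below the other cTKO libraries. Its sums were above them for fibroblast and meningeal markers (832 CPM), adult blood markers (15.7 CPM), embryonic erythroid markers (290 CPM), embryonic growth genes (1080 CPM) and Hox genes (47.4 CPM).

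Library 3 of the cTKO mice was marked for its summed oligodendrocyte precursor markers (385 CPM), and control 5 for Ehd3 (148 CPM), both on the high side.

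In the fit of all 20 libraries, 8 genes differed in genotype effect between the regions by the interaction term. The neocortical minus the hippocampal log2 fold change was -1.54 for Drd1, -1.04 for Lrrc55, -1.91 for Penk, -1.04 for Ptchd1, -1.56 for Rprm and -0.76 for Syne1. Trpa1 (5.02), also among the 8, was under the neocortical filter. Syne1, a nuclear envelope protein, had an FDR of 0.0404 with 20 libraries and of 0.0797 with the 18 that lack the embryonic reads, where 11 genes passed.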

How the results depend on the processing

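With all 10 libraries, the 26 DEGs became 42 without a filter, 163 by the exact test, 167 by the likelihood ratio test, 221 by DESeq2 and 251 by voom with quality weights. Without cTKO library 5, the 132 DEGs became 324, 333, 366 and 326 by the same 4 tests. DESeq2 size factors, filterByExpr, the robust fit and the Xist covariate gave 24 to 35 and 102 to 142. Leaving out each library in turn gave 7 to 132 DEGs from all 10, and 55 to 408 from the 9. The highest counts came without cTKO library 5 and then 3, and the lowest without control 1, control 2 or cTKO 2 in the first case and without control 2 in the second. Same-numbered libraries of the genotypes deviated with correlations of 0.003 to 0.212, not all above 0.1, and not each library correlated best with its own number, so they were not taken as pairs. Pairs 1, 2 and 3 had 0.212, 0.211 and 0.176, the highest of the 25 correlations, and what the number marks is not given in the sources used here. With the replicate block, 12 and 77 DEGs passed, 10 and 65 of them also without it, and 18 genes instead of 8 in the interaction. The 26 and 63 named genes called in the 2 comparisons kept their direction in all 20 and 19 alternatives, and 7 and 35 were called in every one. Without library 5 and 1 other library, cTKO library 3 aside, lists had 1 to 3 rises of neuropeptides (4 with all of the 9), 3 to 7 of proteases (6) and 2 falls of postsynaptic genes (3). Ppl and Sh2d5, not called in neocortex, changed sign. With all 10 libraries, the logFC of Ppl was 0.05, with -0.0686 by voom and -0.0841 to 0.239 as libraries were left out, and that of Sh2d5 was -0.02, with -0.0628 to 0.0123. Without library 5, it was -0.08 for Ppl, with -0.211 to 0.133, and 0.01 for Sh2d5, with -0.0270 to 0.0488. The causes were not tested. Depth limits genes near 0.247 CPM.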
